A study of Homo sapiens with 14 samples.

Results

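Untreated C4-2B cells were compared at 48 and 24 h. C4-2B is a castration-resistant descendant of the LNCaP prostate cancer line. It was kept in medium with fetal bovine serum, and its genotype is labelled WT. The RNA-seq data hold 14 libraries, and 4 of them are the C4-2B vehicle libraries described here. A vehicle at 24 h and a vehicle at 48 h belong to the series that tested 10 µM ursolic acid (UA), and another such pair belongs to the series that tested 100 nM digoxin. These pairs are called the UA-series and the digoxin-series vehicles below, and no cells in them received either compound. The labels do not name the vehicle, and seeding density and medium changes are not given in the sources used here. The other libraries are C4-2B cells with UA or digoxin at 24 and 48 h and HCC70 breast cancer cells with vehicle or UA.

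Every condition has 1 library, so each pair gives a value without an error. The series are the only repeats of the time step. A gene was read in a pair when it was above 1 FPKM (fragments scaled for transcript length and for the number of mapped fragments) in either library, and log2 ratios are of (FPKM + 0.1) at 48 h over 24 h. For genes above 1 FPKM in both pairs, 11713 of the 26063 gene symbols listed in both kinds of file, limma was fitted to the 4 libraries with series as a block. That fit has 1 residual degree of freedom, so its standard error comes mostly from the spread of all genes of like abundance. Its p-values thus rest on a spread between the series that is pooled over genes and may be technical. For a gene whose pairs differ more than such genes do, such as CHAC1, the SE and p-value can be too small. The words rose and fell are used for genes with an adjusted p under 0.05 in this fit. Since these are bulk libraries, more cells of a kind and more RNA per cell cannot be told apart.

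The label was checked first. All 10 luminal prostate markers, such as KLK3 and HOXB13, were above 1 FPKM in each of the 4 libraries. Their summed level was 2964 to 3749 FPKM, against 1026 in HCC70 cells at 24 h, where 4 of the 10 were above 1 FPKM. Of 10 basal markers 1 to 3 were above 1 FPKM, with a summed level of 1.71 to 10.97 FPKM against 18529 in HCC70 cells at 24 h. No endothelial or neuroendocrine marker reached 1 FPKM, and 1 of 10 fibroblast and 1 of 9 leukocyte markers did in each library. Mitochondrially encoded genes held 37.3 and 41.3% of the summed FPKM at 24 and 48 h in the UA series, and the digoxin series had 33.1 and 25.9%. Over the 11713 genes the median log2 ratio was −0.03 in the UA series and 0.12 in the digoxin series. Counts relative to these medians are given below beside those of a list. For such counts no matching share of all genes was computed. Shares of all genes higher or lower in both pairs are of ratios above or below 0.

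Several programmes of cultured cells can be followed in these data. When amino acids run short or proteins misfold, kinases phosphorylate the initiation factor eIF2α, general translation falls and the transcription factor ATF4 is made. ATF4 then switches on genes for amino acid synthesis, amino acid transport and tRNA charging, and also its own brakes, a programme called the integrated stress response. Low oxygen acts through HIF1A on glycolysis and on genes such as VEGFA and BNIP3. Slower proliferation shows as lower RNA of the genes for DNA replication and mitosis.

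ATF4 binds with a C/EBP partner to an element written TGATGNAA. In promoters of 300 bases from RefSeq (GRCh38.p14, 250 before and 50 after the start), 1270 of 35116, or 3.62%, hold these letters on either strand (TTNCATCA when the match is on the other strand). Of the 22 genes of the integrated stress list with a promoter entry 5 hold them, or 22.7%, and of the 21 genes of the list for amino acid transport and tRNA synthetases 12 do, or 57.1%. The share of 3.62% counts promoters, while the lists count genes with a match in any of their promoters. The list shares are therefore not strictly comparable with it. The windows below show the match in capitals for genes whose values follow, read 5′ to 3′ on the strand of the gene. A match is a description of the letters and not a shown binding site.
ASNS, chr7:97872458-97872487, minus strand, match 68 bases before the start: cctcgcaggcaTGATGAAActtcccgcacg
CHAC1, chr15:40953251-40953280, plus strand, match 209 bases before the start: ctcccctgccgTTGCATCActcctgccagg
CEBPG, chr19:33374060-33374089, plus strand, match 42 bases before the start: cgcgcggcgtcTGATGCAAcctgccggcaa
ATF3, chr1:212565205-212565234, plus strand, match 191 bases before the start: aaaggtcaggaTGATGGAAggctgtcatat
AARS1, chr16:70289675-70289704, minus strand, match 187 bases before the start: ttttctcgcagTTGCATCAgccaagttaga
IARS1, chr9:92293692-92293721, minus strand, match 13 bases before the start: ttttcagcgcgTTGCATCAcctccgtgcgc

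In the UA series, 182 of 12295 genes (1.48%) were at least 2-fold higher at 48 h and 117 (0.952%) at least 2-fold lower. In the digoxin series, 459 of 12143 genes (3.78%) were at least 2-fold higher and 83 (0.684%) at least 2-fold lower. The excess of higher genes in the digoxin series is in part the shift of all genes: 84.7% of its genes past 2-fold were higher, and 73.7% (336 against 120) after centring each pair on its median. Most of these genes were weakly expressed: above 5 FPKM the genes past 2-fold numbered 53 in the UA series and 165 in the digoxin series. Among the 100 genes just above the level of 1 FPKM, whose higher library was at 1.01 to 1.08 FPKM, 14 were past 2-fold in the UA series and 29 in the digoxin series, and among the 100 just below it (0.95 to 1 FPKM, not read) 15 and 24.

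Of the 11713 genes read in both pairs, 39 (0.333%) were at least 2-fold higher in both and 7 (0.0598%) at least 2-fold lower in both, while 17 passed 2-fold in opposite directions. The 39 genes are 35.1% of those past 2-fold higher in the UA series and 11.5% of those in the digoxin series. The 7 lower genes are 10% and 15.6% of the corresponding sets. Counting any size, 3902 genes (33.3%) were higher in both pairs, 2748 (23.5%) lower in both and 5006 opposite. Across genes the log2 ratios of the pairs, which share no library, had a Pearson r of 0.24 and a Spearman rho of 0.26. Most genes past 2-fold in a pair were therefore not past it in the other.

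**Figure D1:**
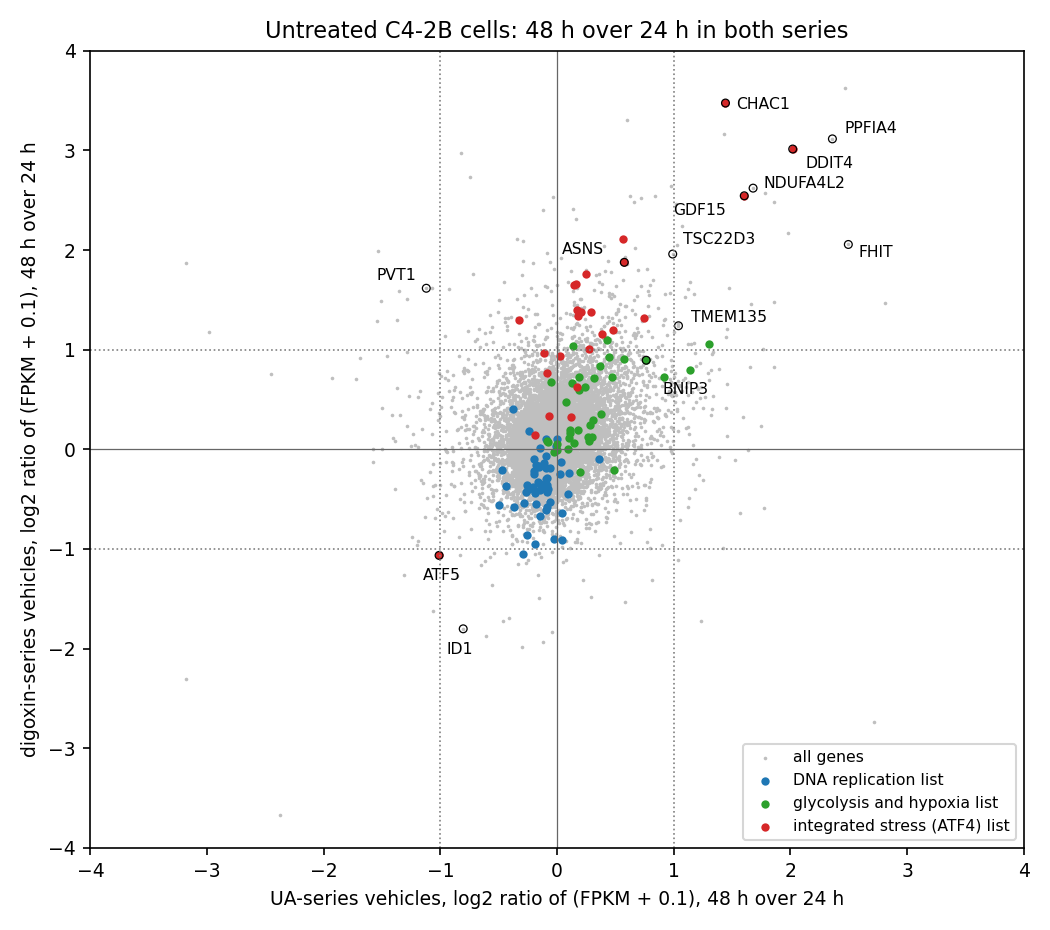
Log2 ratio at 48 h over 24 h in the UA-series vehicles (x axis) and the digoxin-series vehicles (y axis), 1 point per gene for 11713 genes, with dotted lines at 2-fold. Integrated stress genes (red) lie high on the y axis, 40 of 53 DNA replication genes (blue) lie below 0 in both, and 18 genes fall outside the axes.

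limma called 19 genes (0.162%) higher and 6 (0.0512%) lower at 48 h over the 2 series. The protein-coding genes that rose were DDIT4, GDF15, CHAC1, TSC22D3, TMEM135, BNIP3, KLF13, PROCR, NDUFA4L2, PPFIA4 and FHIT. Those that fell, apart from a histone and a readthrough gene, were ATF5 and ID1. CHAC1, PROCR, NDUFA4L2, PPFIA4 and FHIT had few FPKM at 24 h, and their counting error is unknown. At an unadjusted p under 0.05 there were 1154 of the 11713 genes in either direction. The unadjusted counts of the lists below are to be read against that share. The calls depend on the model: 2 genes were called without the series block, 1 (TMEM135) when the treated C4-2B pairs were added as further arms, 0 without the filter on low values, and 121 after centring each library on its median.

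Stress genes were among those with the smallest p-values. DDIT4 (chr10:72273919-72276036), which encodes REDD1, an inhibitor of mTORC1 that is induced by stress and low oxygen, was at 20.7 FPKM at 24 h and 84.3 at 48 h in the UA series and at 29.4 and 238 in the digoxin series. Both libraries at 48 h were above both at 24 h. DDIT4 rose 4.05-fold and 8.08-fold in the pairs, a limma log2 change of 2.52 ± 0.19 (SE, adjusted p = 3.76e-05). GDF15 (chr19:18374731-18389176), a secreted stress cytokine of the TGF-β family, rose from 138.5 to 421 FPKM and from 103 to 599 FPKM, a log2 change of 2.07 ± 0.19 (limma adjusted p = 0.000188). CHAC1 (chr15:40952962-40956512), an ATF4 target that degrades glutathione, rose from 3.36 to 9.31 FPKM and from 3.02 to 34.6 FPKM. Its 24 h levels lay close together, its log2 ratio was 2.03 higher in the digoxin series, and the limma log2 change was 2.46 ± 0.34 (adjusted p = 0.00531).

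Of the regulators named here limma called ATF5 alone. ATF4 RNA was 210.45 FPKM at 24 h and 243 at 48 h in the UA series, against 242 and 630.3 for the digoxin vehicles, a log2 ratio of 0.21 and of 1.38. Its limma log2 change of 0.79 ± 0.21 had an adjusted p of 0.212. DDIT3, which encodes the stress factor CHOP, had log2 ratios of 0.24 and 1.76, and ATF3, another stress-induced factor, went from 5.65 to 7.93 FPKM and from 5.04 to 11.7 FPKM. CEBPG, a partner of ATF4, had 0.27 and 1.01, and CEBPB 0.39 and 1.16. Each of these regulators was higher at 48 h in both pairs and past 2-fold in the digoxin series.

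The exception among the regulators was ATF5 (chr19:49928702-49933935), a relative of ATF4. ATF5 was at 50.2 FPKM at 24 h and 24.8 at 48 h in the UA series and at 34.4 and 16.4 in the digoxin series. ATF5 fell by 1.01 and by 1.06 on the log2 scale, so that both 48 h libraries lay below both 24 h libraries (limma log2 change −1.04 ± 0.14, adjusted p = 0.00531). Among all 8 C4-2B libraries it was also lower at 48 h with UA, at 47.9 and 24.4 FPKM, and close with digoxin, at 28.5 and 27.2 FPKM.

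The named targets of ATF4, like ATF4 RNA, had larger log2 ratios in the digoxin series than in the UA series. ASNS, asparagine synthetase, went from 52.6 to 78.4 FPKM in the UA series and from 57.5 to 212 FPKM in the digoxin series (log2 ratios 0.58 and 1.88, limma adjusted p = 0.053). TRIB3, a pseudokinase that restrains ATF4, went from 20.9 to 23.5 FPKM and from 20.9 to 66.3 FPKM. NUPR1, a small stress-induced nuclear protein, went from 49.8 to 73.6 FPKM and from 43.0 to 186 FPKM. In the digoxin series these targets were thus between 3 and 5 times their 24 h level, while TRIB3 was nearly level in the UA series. The serine pathway enzymes PHGDH and PSAT1 had log2 ratios of 0.03 and 0.18 in the UA series, against 0.94 and 1.33 for the digoxin vehicles. PSPH, the last enzyme of that pathway, went in opposite directions, from 16.9 to 13.5 FPKM and from 18.7 to 46.1 FPKM.

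Over the integrated stress list, 25 of 27 genes passed the filter in both pairs, 19 were higher at 48 h in both, 1 lower in both and 5 opposite, against 33.3% of all genes higher in both. The counts were the same, 19 and 1, relative to the medians of all genes. The list median was 0.18 in the UA series and 1.31 in the digoxin series, beside −0.03 and 0.12 for all genes. At least 2-fold higher were 3 genes in the UA series and 17 in the digoxin series. limma called 3 genes higher (DDIT4, GDF15 and CHAC1) and 1 lower (ATF5), and 18 were higher at an unadjusted p under 0.05. A test of the difference between the series cannot be made with 1 library per condition.

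**Figure D2:**
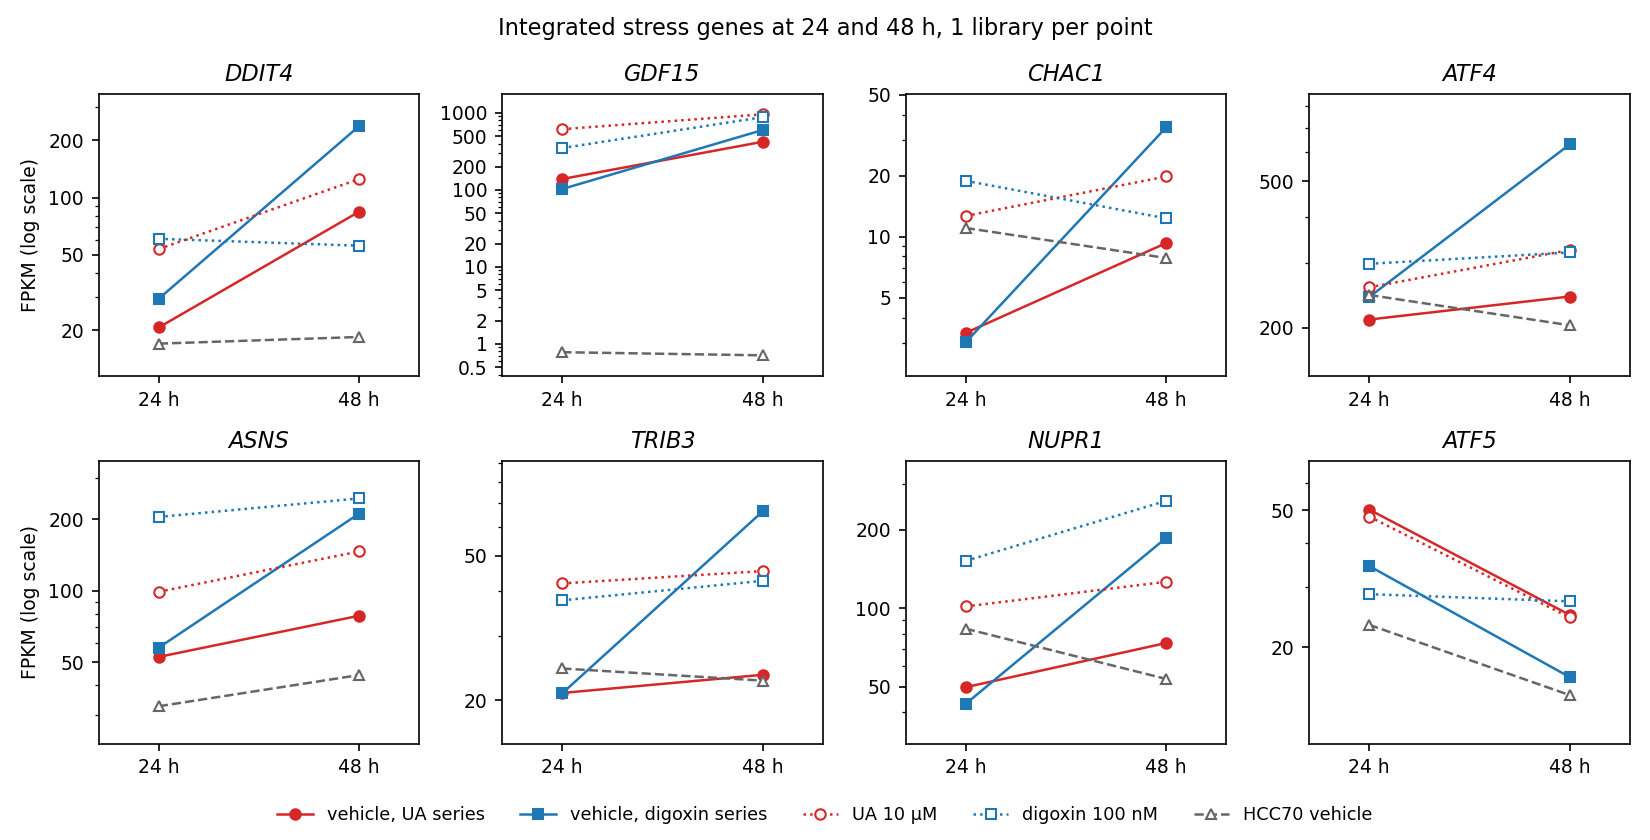
FPKM (log axis, a scale of its own in each panel) of 8 integrated stress genes at 24 and 48 h, with a line joining the 2 libraries of a pair. In the digoxin-series vehicle (filled blue squares) 7 genes climb steeply, DDIT4 from 29.4 to 238 FPKM, while ATF5 is lower at 48 h in both vehicle pairs.

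The genes that bring amino acids into the cell and onto tRNA showed the same split. SLC7A11, the cystine and glutamate exchanger, was at 1.84 and 3.38 FPKM at 24 and 48 h in the UA series and at 4.90 and 28.9 in the digoxin series (log2 ratios 0.84 and 2.54, limma adjusted p = 0.053). SLC6A9, a glycine transporter, was at 4.86 and 7.53 FPKM and at 2.79 and 16.8 FPKM. Both were higher at 48 h in both series. CARS1, the cysteinyl-tRNA synthetase, had log2 ratios of 0.17 and 1.45, AARS1 for alanine 0.23 and 1.02, and IARS1 for isoleucine −0.02 and 0.62. All 24 genes of this list were higher at 48 h in the digoxin series, 6 of them at least 2-fold, and 14 of 24 in the UA series, 0 of them 2-fold. Relative to the medians of all genes 17 of the 24 were higher in both and 1 lower in both. The list medians were 0.04 and 0.53. None of the 24 was called by limma, which gave 11 an unadjusted p under 0.05, all higher. Of the 12 genes with the element in their promoter the median in the digoxin series was 0.75, and of 9 without it 0.50, with overlapping ranges of 0.25 to 1.45 and 0.12 to 2.54. In the UA series these medians were 0.02 and −0.00.

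The stress genes were also read at 48 h over 24 h in libraries that share no sample with the vehicles. In the treated C4-2B pairs, here and elsewhere, the ratio also holds any change of the treatment effect with time. Those pairs are therefore not repeats of the untreated time step. With UA, DDIT4 was at 53.6 FPKM at 24 h and 125 at 48 h, and with digoxin at 60.6 and 55.8. All 4 treated C4-2B libraries lay above the vehicles at 24 h and below the digoxin-series vehicle at 48 h. CHAC1 with digoxin was at 18.9 FPKM at 24 h and 12.3 at 48 h. GDF15 was at 615 and 957 FPKM with UA and at 349 and 879 FPKM with digoxin, above its 24 h vehicles throughout. The list median was 0.21 in the UA-treated pair, 0.09 in the digoxin-treated pair and −0.12 in the HCC70 vehicle pair. Higher at 48 h were 21, 15 and 8 of the 25 genes, beside 48.8%, 52.2% and 36.6% of the 11713 genes in these pairs. The median of 1.31 belonged to the digoxin-series vehicles, and those of the other 4 pairs lay between −0.12 and 0.21.

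Chaperones of the endoplasmic reticulum, which mark the unfolded protein response, were less uniform. HERPUD1, a factor of protein disposal from the endoplasmic reticulum, had log2 ratios of 0.25 and 1.80, and XBP1, a transcription factor of that response, −0.21 and 0.77. HSPA5, its best known chaperone, was at 246 and 248 FPKM in the UA series and at 306 and 442 FPKM in the digoxin series. Of the 21 genes read, 9 were higher in both and 12 opposite (11 higher and 2 lower in both relative to the medians of all genes), with medians of −0.02 and 0.34, and limma called none, with 1 gene at an unadjusted p under 0.05. The heat shock list, cytosolic chaperones under HSF1, was lower on balance, with 11 of 17 genes lower in both and 2 higher, or 8 and 1 relative to the medians of all genes. HSPH1 had log2 ratios of −0.12 and −0.61 and DNAJB1 −0.08 and −0.57. limma called none of the 17, with 1 higher and 1 lower at an unadjusted p under 0.05.

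Genes of glycolysis and of the response to low oxygen were higher at 48 h in both series, and here the series lay closer together. BNIP3 (chr10:131967684-131981967), a mitophagy receptor induced by low oxygen, was at 87.4 FPKM at 24 h and 149 at 48 h in the UA series and at 90.1 and 167 in the digoxin series. BNIP3 rose 1.70-fold and 1.86-fold (limma log2 change 0.83 ± 0.13, adjusted p = 0.0186). NDUFA4L2, a mitochondrial protein induced under low oxygen, rose from 1.32 to 4.45 FPKM and from 1.61 to 10.4 FPKM (limma adjusted p = 0.0041). NDUFA4L2 is not a member of the list counted below. The time step was of like size for PFKFB4, a regulator of glycolytic flux, which went from 2.08 to 5.27 FPKM and from 3.34 to 7.05 FPKM (limma adjusted p = 0.0608). VEGFA, the angiogenic growth factor, had log2 ratios of 0.45 and 0.92, PDK1, which keeps pyruvate from the mitochondria, 0.43 and 1.10, and BHLHE40, a repressor, 0.92 and 0.73. HIF1A itself had 0.19 and −0.23.

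Of 36 genes of this list read in both pairs, 27 were higher in both, 1 lower in both and 8 opposite, and relative to the medians of all genes 23 and 2. The medians were 0.22 and 0.32. limma called BNIP3 higher and 0 genes lower, and 14 were higher at an unadjusted p under 0.05. The abundant glycolytic enzymes moved little, with log2 ratios of 0.11 and 0.11 for GAPDH, 0.00 and −0.01 for PKM and 0.15 and 0.07 for LDHA. In the treated pairs the medians were 0.10 with UA and 0.09 with digoxin, and in HCC70 cells −0.03.

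Genes of DNA replication were lower at 48 h. MCM4, a subunit of the replicative helicase, was at 141 FPKM at 24 h and 100.2 at 48 h in the UA series and at 149 and 100.9 in the digoxin series. RRM2, which makes deoxyribonucleotides, was at 152 and 117 FPKM and at 99.03 and 66.07 FPKM. DTL, which marks the licensing factor CDT1 for destruction in S phase, had log2 ratios of −0.30 and −1.05. Of 53 replication genes 40 were lower in both pairs, 0 higher in both and 12 opposite, against 23.5% of all genes lower in both, and LIG1 was level in the UA series. Relative to the medians of all genes 41 were lower in both. The medians were −0.15 and −0.36. limma called none of the 53, and 12 were lower at an unadjusted p under 0.05.

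Replication genes were lower on balance in the other pairs too. The list median was −0.11 with UA, −0.51 with digoxin and −0.36 in HCC70 vehicle cells, beside −0.01, 0.02 and −0.09 for all genes. In these pairs 41, 52 and 49 of the 53 genes were lower at 48 h. Of all 11713 genes 48.8%, 52.2% and 36.6% were higher at 48 h there. Mitosis genes were lower too, with 26 of 48 lower in both vehicle pairs, 5 higher in both, and 35 and 1 relative to the medians of all genes. BIRC5 (survivin) had log2 ratios of −0.38 and −0.45 and PLK1, the mitotic kinase, −0.29 and −0.44. None of the 48 was called by limma, and 6 were lower at an unadjusted p under 0.05, beside 1154 of all 11713 genes in either direction. Of 28 genes of the MYC network and ribosome biogenesis 16 were lower in both and 5 higher (15 and 4 relative to the medians of all genes), among them NOP2, an rRNA methyltransferase, with −0.37 and −0.47. MYC itself had 0.18 and 0.42. Of 76 ribosomal protein genes, by contrast, 54 were higher in both and 0 lower in both (61 and 0 relative to the medians of all genes), with medians of 0.04 and 0.34. With UA 75 and with digoxin 66 of the 76 were higher at 48 h. In HCC70 vehicle cells the direction was the reverse, with 75 of the 76 lower and a median of −0.46. Relative to the median of all genes this list median was −0.37. Mitochondrially encoded genes held 35.3% of the summed FPKM at 24 h and 44.4% at 48 h in these HCC70 libraries. The part of that share in the reversal was not tested.

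**Figure D3:**
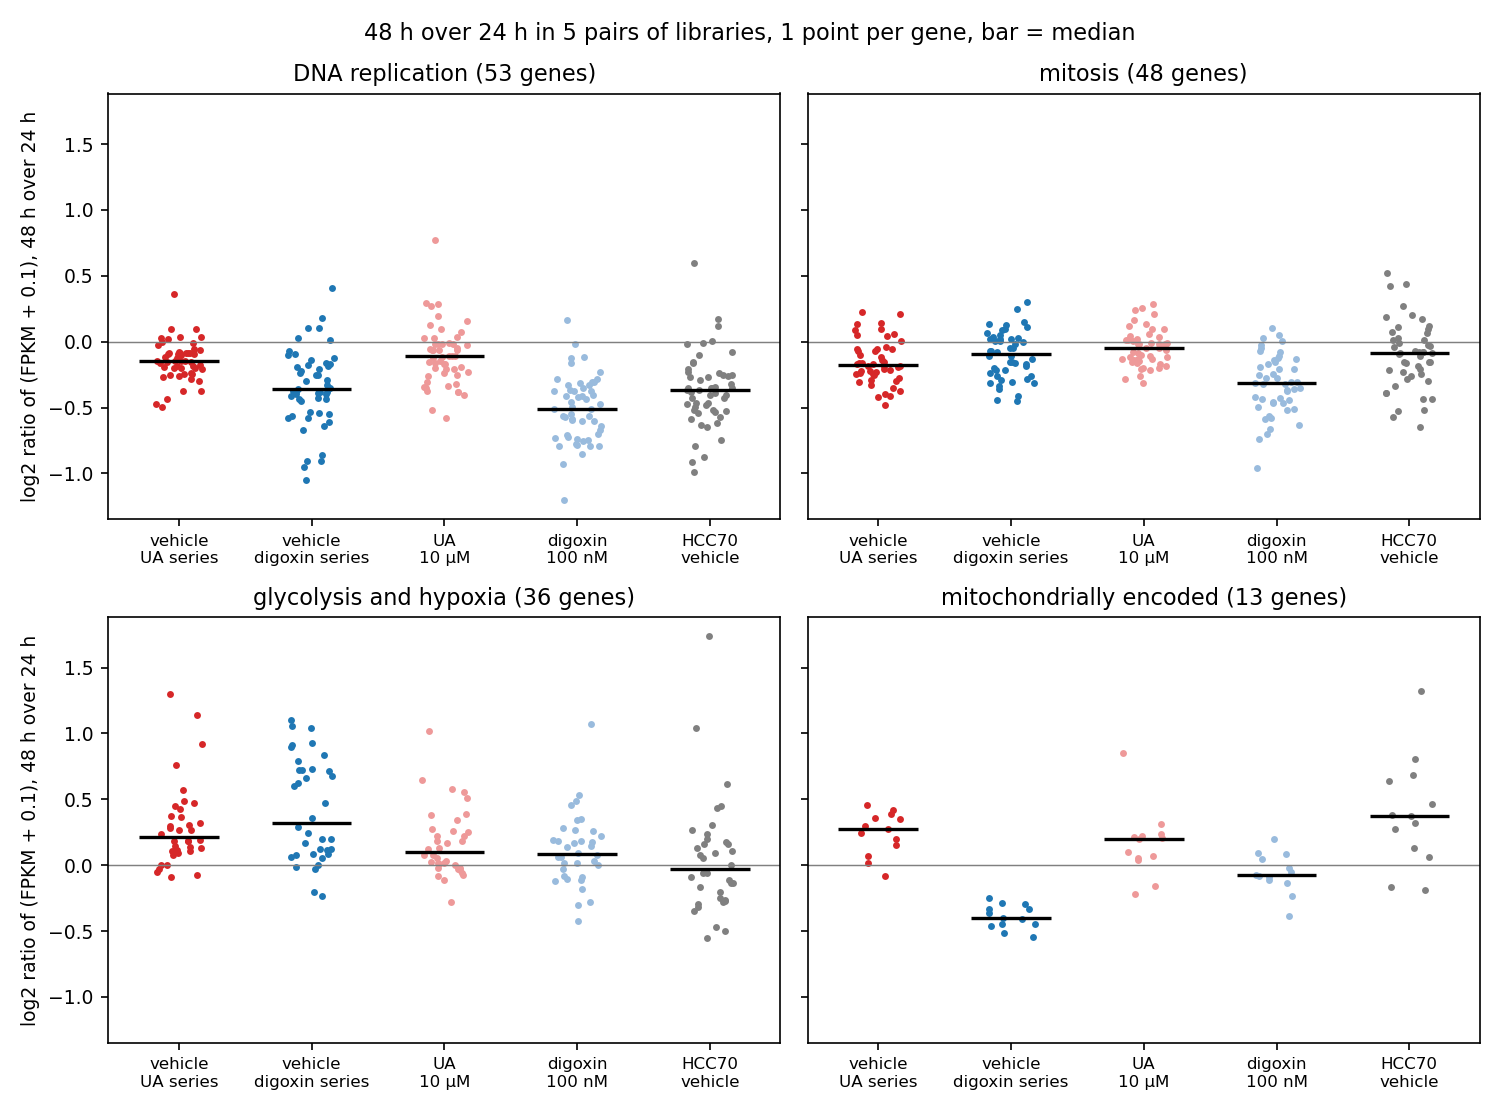
Log2 ratio at 48 h over 24 h for the members of 4 gene lists in 5 pairs of libraries, 1 point per gene, with the median as a bar. DNA replication genes have medians from −0.51 to −0.11 in all 5 pairs, while 12 of 13 mitochondrially encoded genes lie above 0 in the UA-series vehicles (median 0.27) and all 13 below 0 in the digoxin-series vehicles (median −0.40).

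The mitochondrially encoded genes, which code for subunits of the respiratory chain, went in opposite directions. MT-CYB was at 12370.3 and 16948 FPKM at 24 and 48 h in the UA series and at 11509 and 9407 in the digoxin series. MT-ND4 was at 20370.3 and 27248 FPKM and at 17155 and 12474 FPKM. Of the 13 genes, 12 were higher in the UA series and 13 lower in the digoxin series, with medians of 0.27 and −0.40. The summed FPKM of all other genes went from 587580.0 to 595752 in the UA series and from 560720 to 621768 in the digoxin series. In the digoxin series that sum was higher at 48 h while the mitochondrially encoded share was lower. In the UA series the sum and the share were both higher at 48 h. The part of that share in the other results was not tested.

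Other genes that rose are, like NDUFA4L2, in none of the gene lists used here. Whether they belong to these programmes was not tested. TMEM135 (chr11:87037844-87328824), a transmembrane protein of mitochondria and peroxisomes, rose from 8.15 to 16.9 FPKM and from 12.3 to 29.3 FPKM, with a limma log2 change of 1.14 ± 0.16 (adjusted p = 0.00588). It was also higher at 48 h with UA (7.21 and 17.9 FPKM), with digoxin (12.2 and 25.2 FPKM) and in HCC70 cells (5.45 and 9.17 FPKM). TSC22D3, which encodes GILZ and is known as a glucocorticoid-induced gene, rose from 56.2 to 112 FPKM and from 34.5 to 135 FPKM (limma adjusted p = 0.0041). With digoxin it was at 63.8 and 57.9 FPKM. KLF13, a zinc finger factor, rose from 12.2 to 28.6 FPKM and from 6.33 to 11.7 FPKM. The groups overlap for KLF13, since its 48 h level in the digoxin series was below its 24 h level in the UA series.

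PROCR, the receptor of protein C, rose from 3.12 to 6.99 FPKM and from 1.80 to 5.99 FPKM (limma adjusted p = 0.028). PPFIA4, a liprin, was at 0.35 and 2.21 FPKM and at 0.20 and 2.50 FPKM, and FHIT, a dinucleoside hydrolase, at 0.74 and 4.64 FPKM and at 1.36 and 5.97 FPKM. Both rose, and both were called again with a pseudocount of 1. With all 8 C4-2B libraries neither was called (limma adjusted p = 0.161 for PPFIA4 and 0.539 for FHIT). FHIT was lower at 48 h with digoxin, at 3.65 and 0.82 FPKM, and with UA it was at 0.87 and 1.54 FPKM. PPFIA4 and FHIT are named because limma called them, after their values were seen. Of 22 genes of a list for prostate secretion, zinc and polyamines 8 were higher in both pairs, 4 lower in both and 10 opposite (8 higher and 5 lower in both relative to the medians of all genes), with medians of −0.05 and 0.22 and none called. AGR2, a disulfide isomerase of mucous cells, had log2 ratios of 0.52 and 1.38 (limma adjusted p = 0.055), TFF3, a trefoil peptide, 0.86 and 1.42 (adjusted p = 0.141), and MSMB, a prostate secretory protein, 0.90 and 1.05 (adjusted p = 0.202). CDH3, the gene of P-cadherin, had 0.76 and 0.82, and PHC1, a Polycomb protein, 0.87 and 1.03.

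ID1 (chr20:31605283-31606515), an inhibitor of basic helix-loop-helix factors and a target of BMP signalling, fell from 71.2 to 40.7 FPKM and from 30.1 to 8.55 FPKM, by 0.80 and 1.80 on the log2 scale (limma log2 change −1.30 ± 0.20, adjusted p = 0.0122). Its relatives were lower in both pairs as well, ID2 with log2 ratios of −0.52 and −0.31 and ID3 with −0.25 and −0.67, without passing the threshold. For ID1 the groups overlap, since the UA-series vehicle at 48 h lay above the digoxin-series vehicle at 24 h. DUSP2, a phosphatase of MAP kinases, was at 41.6 and 24.9 FPKM and at 16.6 and 9.46 FPKM (limma adjusted p = 0.0663). SLC16A6, a transporter, had log2 ratios of −0.62 and −1.12, PER3, a clock gene, −0.54 and −1.04, and INTS7, an Integrator subunit, −0.59 and −0.90. IPO4, an importin, was at 53.4 and 35.4 FPKM and at 40.4 and 25.9 FPKM, and NOL6, a nucleolar protein, at 39.9 and 26.9 FPKM and at 37.3 and 26.1 FPKM. Each was lower at 48 h in both series.

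Several calls concern short or repeated genes whose FPKM is uncertain. SNORA63, a small nucleolar RNA, was listed at 0 at 24 h and at 22.7 and 28.7 FPKM at 48 h, and MIR1307 the reverse, at 5.63 and 4 FPKM at 24 h and 0 at 48 h. RNU1-1 and 5 other U1 copies had the same values in the 4 vehicle libraries and count as 6 of the 19 genes called higher. SVIL-AS1, annotated in GENCODE v44 as a transcribed unprocessed pseudogene, was at 67.4 and 12.9 FPKM and at 179.5 and 14.01 FPKM, but also at 15.4 FPKM with UA and 207 with digoxin at 24 h. H2AC7 (a histone gene), ST20-MTHFS (a readthrough gene) and LOC101928626 complete the calls and, like RNU1-1, are named because they were called.

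Androgen-induced genes showed no common direction. KLK3, which encodes prostate-specific antigen, was at 1207 and 1212 FPKM at 24 and 48 h in the UA series and at 1484 and 1971 in the digoxin series. KLK2, a related protease, was at 436 and 451 FPKM and at 205 and 247 FPKM. TMPRSS2 had log2 ratios of 0.24 and 0.91, and FKBP5, the chaperone of steroid receptors, −0.23 and −0.51. The limma adjusted p of these genes was 0.744 for KLK3, 0.768 for KLK2, 0.242 for TMPRSS2 and 0.387 for FKBP5. Of 33 androgen-induced genes 7 were higher in both pairs, 13 lower in both and 12 opposite (9 higher and 15 lower in both relative to the medians of all genes), with medians of −0.08 and −0.02.

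**Figure D4:**
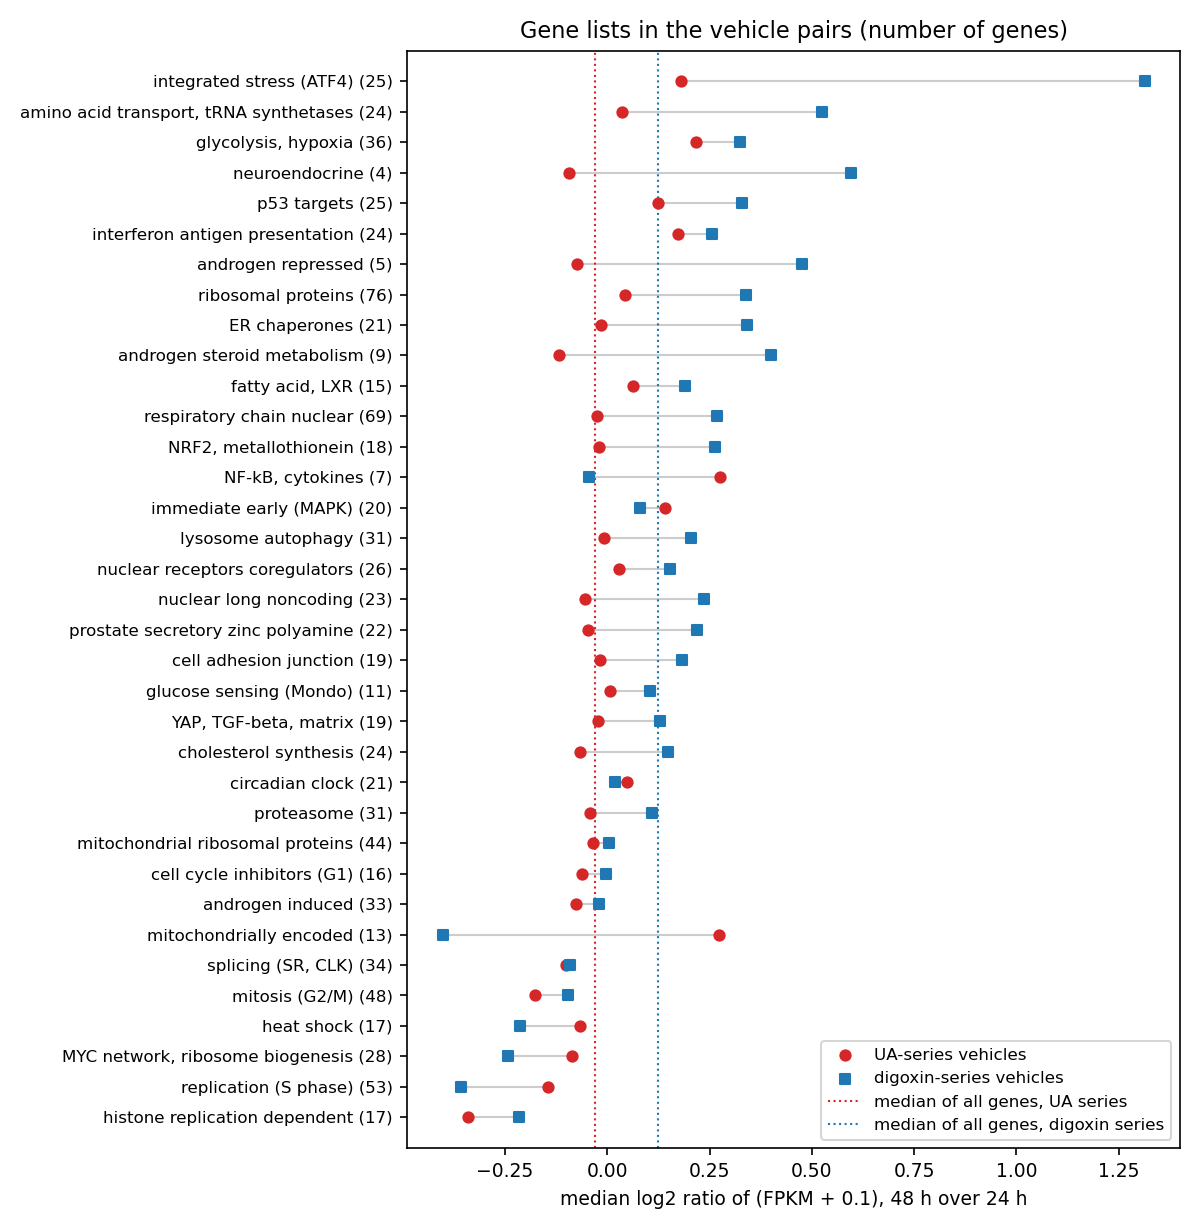
Median log2 ratio at 48 h over 24 h of 35 gene lists (number of genes read in brackets) in the UA-series vehicles (red circles) and the digoxin-series vehicles (blue squares), with dotted lines at the median of all genes (−0.03 and 0.12). The integrated stress list lies furthest to the right in the digoxin series (1.31), and the replication list lies left of both lines.

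The 17 genes past 2-fold in opposite directions were mostly low or hard to assign, and 5 of them were above 5 FPKM in each pair. PVT1, a long non-coding RNA gene next to MYC, was at 44.5 and 20.4 FPKM at 24 and 48 h in the UA series and at 19.5 and 60.0 in the digoxin series. With UA it was at 51.6 and 24.6 FPKM, and with digoxin at 21.8 and 35.3 FPKM, so that the treated pairs went the way of the vehicles of their series. XAGE1A and XAGE1B, near-identical copies of a cancer-testis antigen gene on chromosome X, mirrored each other. XAGE1A was at 4.49 and 30.01 FPKM in the UA series and at 61.2 and 9.07 in the digoxin series, and XAGE1B at 34.1 and 8.70 FPKM and at 2.80 and 67.4 FPKM. The split of fragments between these copies is uncertain, and RN7SL2 and SNORA22, both short RNAs, complete the 5.

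Smaller differences of opposite sign were found in well-expressed genes. PKMYT1, a kinase that holds back mitosis, was at 90.3 and 101.9 FPKM at 24 and 48 h in the UA series and at 80.9 and 43.4 in the digoxin series. LRP6, a WNT co-receptor, had log2 ratios of 0.51 and −0.53, and ZFYVE26, a protein of endosomes, 0.22 and −1.31. At the low end of the digoxin series stood POLR1G and TPRN, which were lower at 48 h in both series. POLR1G, a subunit of RNA polymerase I, was at 14.9 and 4.43 FPKM beside 16.4 and 11.8 in the UA series. TPRN was at 77.2 and 20.1 FPKM beside 25.1 and 23.0, and with UA at 24 h it was at 93.3 FPKM. None of these 5 genes was called by limma. Among the genes past 2-fold higher in both vehicle pairs, 31 of 39 were also higher at 48 h with UA, 30 with digoxin and 26 in HCC70 cells, with medians of 0.59, 0.58 and 0.30, beside 48.8%, 52.2% and 36.6% of the 11713 genes. The 39 include the 6 U1 copies, which are not independent of each other.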

How the data were processed

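The authors deposited FPKM values per gene, made per their processing notes with BWA, Bowtie and Cufflinks on hg38 (versions not given in the sources used here). Headers of the digoxin-series files give no unit, and FPKM was assumed. Read totals are not given. Of low values times exon length, 23.4 to 25.2% lay within 0.1 of a whole fragment (20% if even), so depth is unknown and no counting interval is given. Entries of a symbol were summed. Per-pair counts used all genes of a pair's files, and counts over both pairs the 26112 Ensembl IDs in both. limma 3.58.1 (R 4.3.3, trend) with Benjamini-Hochberg adjustment was run on simulated data of 11713 genes, recovering 100 of 100 planted log2 changes of 2 while calling 17 of 11513 unchanged genes. The simulated noise was normal with the variances of the fit itself. That run therefore checks the code and says nothing about the calls in the real data. Tables were made with pandas 2.3.3 in Python 3.11.15, and gene positions are from GENCODE v44. At most 1.41% of IDs above 0 had identical values between vehicle libraries.

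Genes were named if among the 15 highest or lowest in both pairs, the 10 most opposite or most extreme in a pair (above 5 FPKM), prominent in a list, or among 6 chosen genes, of which KLK2, KLK3, FKBP5 and TMPRSS2 are described and the others are not reported here. Members, lists and tests were chosen with earlier results of these data known. Alternatives were pseudocounts of 1 and 0.01, other filters, folds of 1.5 and 3, median centring, the highest entry of a symbol, other limma models and, chosen after seeing the data, protein-coding genes only. The 4 treated HCC70 libraries were not used here.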

Additional observations from a re-analysis of the deposited data

Results flagged for a closer look

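These values stood in opposite directions in the vehicle pairs, as the log2 ratio at 48 h over 24 h in the digoxin series minus that in the UA series, and the differences were not tested, since each pair holds 1 library per time. PVT1 differed by 2.74 (−1.12 in the UA series and 1.62 in the digoxin series). XAGE1A differed by −5.46 and its near-identical copy XAGE1B by 6.50. RN7SL2 differed by 4.16 and SNORA22 by 16.04, the latter with 0 listed in a library of each pair. The median of the mitochondrially encoded genes differed by −0.68 (0.27 in the UA series and −0.40 in the digoxin series).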

How the results depend on the processing

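Counts moved with the filter, the pseudocount and the fold. Past 2-fold were 299 genes in the UA series, 542 in the digoxin series and 46 in the same direction in both. With a pseudocount of 1 these counts were 102, 214 and 20, without a filter 1573, 1750 and 272, above 5 FPKM 53, 165 and 9, at 1.5-fold 962, 1796 and 227, and at 3-fold 102, 187 and 20. A pseudocount of 0.01, median centring and the highest entry of a symbol kept each count within 1.5 times. The 25 genes limma called became 2 without the series block, 1 with all 8 C4-2B libraries, 0 without a filter (smallest adjusted p = 0.206, 1150 genes at an unadjusted p under 0.05) and 121 after centring each library on its median, where the 25 were all called again. Under a pseudocount of 1 the same 25 were called, above 5 FPKM 24 (12 of them the same), and among protein-coding genes 23 (15 the same). The cause of these differences was not tested. Of 35 list medians, as the mean of both pairs, 6 moved by more than the spread of the pairs after centring and 0 with a pseudocount of 1, and of 66 named genes 6 and 9 did. No leave-one-out fit was made, since 3 libraries leave no residual degree of freedom with the block. The 24 and 48 h vehicles of a series were paired by the series block of the reported fit, and the labels give no replicate numbers for another pairing. Without replicates or depth, a gene of few FPKM past 2-fold cannot be told from counting error.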

Other observations

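Other lists held members higher at 48 h in both series without a limma call. Of 24 interferon and antigen presentation genes 14 were higher in both pairs and 2 lower in both (12 and 4 relative to the medians of all genes), with medians of 0.17 and 0.26. HLA-E, a non-classical class I molecule, was at 11.9 and 16.6 FPKM at 24 and 48 h in the UA series and at 6.58 and 12.3 in the digoxin series. Of 25 p53 targets 14 were higher in both and 2 lower (14 and 4 relative to the medians), among them BTG2, an antiproliferative gene, with log2 ratios of 0.58 and 0.66, while CDKN1A, the cell cycle inhibitor p21, had −0.00 and 0.13. JUND, an AP-1 factor, had log2 ratios of 0.65 and 0.62. JDP2, an AP-1 repressor, was at 5.35 and 8.89 FPKM and at 2.85 and 16.8 FPKM, with a limma adjusted p of 0.0608. Each of these genes but CDKN1A was higher at 48 h in both series.

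Of 21 clock genes 8 were higher in both pairs and 6 lower in both, shares near those of all genes (33.3 and 23.5%). Relative to the medians the counts were 8 and 7. BHLHE41, a clock repressor, was at 1.67 and 5.14 FPKM in the UA series and at 8.68 and 5.54 in the digoxin series, while its relative BHLHE40 was higher in both. TEF, an output factor of the clock, had log2 ratios of −0.34 and −0.76.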
